A study of Mus musculus with 6 samples.

Results

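The immunoglobulin heavy-chain genes and B-lineage transcripts were followed through 6 mouse RNA-seq libraries. Members were taken by gene name as every heavy-chain variable (V) segment, whose names start with Ighv, together with the constant genes Ighm, Ighd, Ighg1, Ighg2b, Ighg2c, Ighg3 and Igha, the kappa constant gene Igkc, the joining chain gene Jchain, and Cd79a and Cd79b. This gave 80 of the 36842 genes measured, of which 69 were V segments and 11 were not. The GENCODE M21 annotation holds 185 genes whose names start with Ighv. All counts and shares of V segments below therefore cover the 69 measured ones and not the whole locus. Ighe, the constant gene of immunoglobulin E, was not analysed here. Of the V segments, 67 were annotated as immunoglobulin V genes and 2, Ighv1-62 and Ighv3-2, as pseudogenes.

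The libraries fell into 2 groups of 3, labelled Sal_CP and CP by their titles, and all were labelled as wild-type GC-2spd(ts), a mouse spermatocyte cell line, with testis as the tissue. Per the labels, Sal_CP libraries came from cells given 2 mM cyclophosphamide and 100 μM salidroside for 24 h, and CP libraries from cells given 2 mM cyclophosphamide alone for 24 h, so both groups had received cyclophosphamide and no library came from untreated cells. Cyclophosphamide is an alkylating cytotoxic drug, and salidroside is a phenylpropanoid glucoside of Rhodiola plants. The series' design text names the question as how salidroside raises Gpx4 expression in these cells. Whether each library had its own culture is not stated in the labels. A p-value here is therefore set against the variation among these libraries, which may be technical.

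A B cell builds its heavy chain by joining 1 V segment to a D and a J segment, and the joined exon is transcribed with a constant gene. Each B-cell clone therefore carries 1 joined V segment, which other clones may share. Many V segments appear side by side in RNA from a mixed B-cell population. The heavy chain pairs with a kappa or lambda light chain, sits at the cell surface with the signalling pair Cd79a and Cd79b, and is secreted in quantity once a B cell becomes a plasma cell.

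The labelled cell type was checked against its markers first. The meiotic gene Sycp3 lay at 1.39 to 3.75 FPKM (fragments scaled by transcript length and by library total), and Dmc1, a meiotic recombinase, at 0.0345 to 0.299 FPKM. The 6 late spermatid genes Prm1, Prm2, Tnp1, Tnp2, Smcp and Odf1 summed to 44897 to 72707 FPKM in Sal_CP and 31187 to 51233 FPKM in CP. The 14 epididymal and epithelial genes summed to 2126 to 2906 FPKM in Sal_CP and 4341 to 5047 FPKM in CP. The leukocyte gene Ptprc was present in all libraries, at 0.653 to 4.33 FPKM, the lowest mean of the 12 pan-leukocyte and myeloid genes. Together these 12 summed to 699 to 1797 FPKM in Sal_CP and 1082 to 1321 FPKM in CP, of which Cd52 alone read 504 to 867 FPKM. Transcripts known from late spermatids, from epididymal and other epithelial cells and from leukocytes were thus present. The 6 spermatocyte genes, Sycp3 and Dmc1 among them, summed to only 4.11 to 7.44 FPKM in Sal_CP and 2.65 to 4.57 FPKM in CP. These markers therefore do not show the labelled cell type as the main source of the RNA. The part of the other cell types in the results below was not tested. In bulk RNA, fewer cells of a type and less RNA per cell cannot be told apart.

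The deposited FPKM could be tied to sequencing depth. FPKM multiplied by transcript length lay within 0.02 of a whole multiple of a step for 34.4 to 35.95% of low values in each library. An even spread would give 4%. The step was itself set at the most frequent of these values, so an excess at 1 step is built in. Most low values lay off the whole multiples. Taking 1 step as 1 read pair made 1 read pair worth 0.0454 FPKM in Sal_CP 1 and 0.0545 to 0.0606 FPKM in the others for a transcript of 1 kb, so that Sal_CP 1 was the deepest, at 1.33 times the depth of Sal_CP 2. A V segment transcript of 351 bases seen with 3 read pairs, the limit that a count of 0 allows, would read 0.388 to 0.518 FPKM. Such limits cover counting error only, and no molecular identifiers were used that would separate molecules from PCR copies.

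Detection of the members was sparse, and most V segments seen at all were seen in a single library. Of the 80 members, 43 were above 0 FPKM in at least 1 library, 25 in exactly 1, and only Ighm, Igkc and Jchain in all 6. All 25 single-library members were V segments. Among the 69 V segments, 33 (47.8%) were above 0 in at least 1 library and 36 were listed at 0 in all. Of the 33, 25 were above 0 in exactly 1 library, 3 in 2 libraries, 2 in 3 libraries and 3 in 5 libraries, and 0 in all 6. In the whole table, 87.9% of genes were above 0 somewhere, 12.8% in exactly 1 library and 52.7% in all 6.

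Other loci of short or rarely transcribed genes were as sparse. Exactly 1 library was above 0 for 36.2% of heavy-chain V segments, 37.5% of the 72 kappa V segments, 33.7% of the 104 T-cell receptor V segments and 37.3% of the 493 olfactory receptor genes. The number of heavy-chain V segments above 0 was 9, 13 and 6 in Sal_CP 1, 2 and 3, and 12, 9 and 3 in CP 1, 2 and 3. The most segments were seen in Sal_CP 2 and the fewest in CP 3, and the groups overlapped. The deepest library, Sal_CP 1, did not hold the most.

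**Figure D1:**
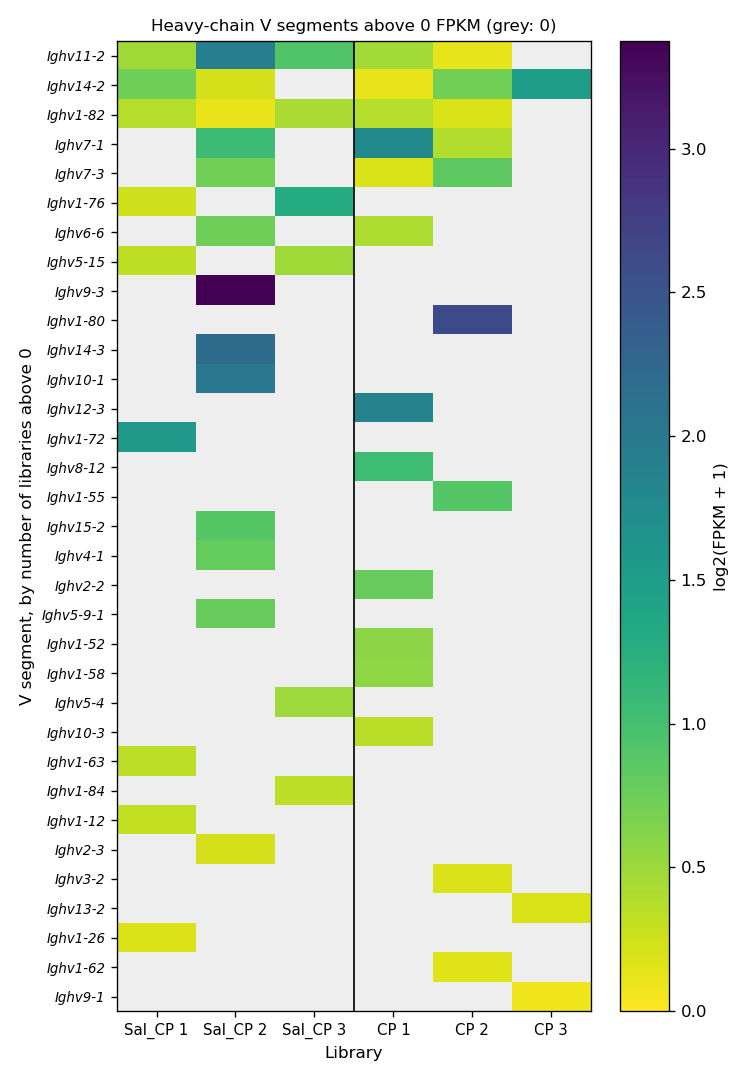
Level of each of the 33 heavy-chain V segments above 0 in at least 1 library, as log2(FPKM + 1) by colour, with the 3 Sal_CP libraries left of the line and the 3 CP libraries right of it, and 0 in grey. Below the 8 segments seen in several libraries, the remaining 25 each have 1 coloured cell, and the darkest is Ighv9-3 in Sal_CP 2 at 9.36 FPKM.

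The single-library V segments lay higher than single-library genes at large. They lay at 0.0534 to 9.36 FPKM with a median of 0.505 FPKM, and 7 of the 25 (28%) reached 1 FPKM. Of the 4702 genes of the whole table above 0 in exactly 1 library, 56 (1.19%) reached 1 FPKM, and the median was 0.0748 FPKM. FPKM gives more weight to each read on a short transcript, so read pairs were compared as well. Among single-library genes with 1 annotated transcript, 12 of 22 heavy-chain V segments (54.5%) were seen with more than 3 read pairs, beyond the same tolerance, against 666 of 4341 genes (15.3%) overall. More than 10 read pairs were behind 6 of the 22 heavy-chain V segments (27.3%), 3 of 22 kappa V segments (13.6%), 0 of 29 T-cell receptor V segments and 0 of 151 olfactory receptor genes. Olfactory and T-cell receptor genes seen once thus rested on a few reads, while some immunoglobulin V segments seen once did not. The other 10 heavy-chain segments had at most 3 read pairs in the library that held them, about the number that a count of 0 allows in another library.

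The 2 single-library segments of highest level are shown over their last 300 bases, because a signal in 1 library is only as certain as the assignment of its reads to that segment. Coordinates are GRCm38, all on the minus strand of chromosome 12, and each stretch is the 3′ end of the segment's last exon, written 5′ to 3′ as in the GENCODE M21 transcript. Capitals mark the TGT codon of the conserved second cysteine of the V domain, located as the last match of TANTNNTGT on the coding strand in the last 60 bases. That pattern was found in 67 of 69 V members (97.1%) and in the last 60 bases of 2.34% of all annotated transcripts.
Ighv9-3 (chr12:114140692-114140991): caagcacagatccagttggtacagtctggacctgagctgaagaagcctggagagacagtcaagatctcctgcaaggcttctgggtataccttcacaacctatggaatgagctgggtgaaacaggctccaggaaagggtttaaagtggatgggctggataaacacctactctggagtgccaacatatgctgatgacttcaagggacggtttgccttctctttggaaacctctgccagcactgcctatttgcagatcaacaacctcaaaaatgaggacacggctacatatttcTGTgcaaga
Ighv1-80 (chr12:115912344-115912643): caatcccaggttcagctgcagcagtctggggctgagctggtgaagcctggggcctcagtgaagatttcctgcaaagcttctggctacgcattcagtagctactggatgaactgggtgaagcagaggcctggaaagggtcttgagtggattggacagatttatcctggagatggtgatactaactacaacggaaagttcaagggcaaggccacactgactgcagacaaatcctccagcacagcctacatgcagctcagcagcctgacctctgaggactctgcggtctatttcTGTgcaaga

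Ighv9-3 was listed at 0, 9.36 and 0 FPKM in Sal_CP 1, 2 and 3, and at 0 in CP 1, 2 and 3. Its Sal_CP 2 level corresponded to 54.3 read pairs and was at least 18.1-fold higher than the 3-pair limit of any library at 0. Ighv1-80 was listed at 0 in all 3 Sal_CP libraries and at 0, 5.14 and 0 FPKM in CP 1, 2 and 3. That level corresponded to 31.7 read pairs, at least 9.91-fold above the limit elsewhere. Both segments were therefore high in 1 library and listed at 0 in every other. Every 100-base window of either transcript was absent, as an exact match, from all other annotated immunoglobulin transcripts. Reads that differ from the annotated sequences were not examined. The closest other V segment shared 94.8% of the last 290 bases with Ighv9-3 (Ighv9-2) and 96.2% with Ighv1-80 (Ighv1-82). Ighv9-2 itself was listed at 0 in every library, whereas Ighv1-82 was above 0 in 5 libraries, at 0.145 FPKM in CP 2.

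A further 5 segments reached 1 FPKM in exactly 1 library, and their last 60 bases are shown with the same marking. They belong to 5 families, and no 2 of these ends are identical.
Ighv14-3 (chr12:114059845-114059904): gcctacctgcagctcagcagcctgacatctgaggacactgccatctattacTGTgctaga
Ighv10-1 (chr12:114479005-114479064): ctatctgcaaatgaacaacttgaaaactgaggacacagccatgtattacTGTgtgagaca
Ighv12-3 (chr12:114366521-114366580): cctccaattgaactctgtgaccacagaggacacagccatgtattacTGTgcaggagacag
Ighv1-72 (chr12:115757984-115758043): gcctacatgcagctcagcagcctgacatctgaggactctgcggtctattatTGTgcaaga
Ighv8-12 (chr12:115647945-115648004): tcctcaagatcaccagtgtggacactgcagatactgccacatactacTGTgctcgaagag

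In Sal_CP 2, Ighv14-3 read 3.53 FPKM (23.2 read pairs) and Ighv10-1 read 3.07 FPKM (18.2 read pairs). In CP 1, Ighv12-3 read 2.64 FPKM (15.8 read pairs) and Ighv8-12 read 1.06 FPKM (6.45 read pairs). In Sal_CP 1, Ighv1-72 read 1.91 FPKM (16.7 read pairs). Levels were at least 7.74-fold, 6.05-fold, 5.12-fold, 2.09-fold and 4.17-fold above the 3-pair limit of the libraries at 0, in that order. Ighv1-72 is the least certain of these assignments, since 57.2% of its 100-base windows were unique to it. Ighv1-62-3 shared 99.3% of the last 290 bases of Ighv1-72 and was not among the V segments measured here. For the other 4 segments all windows were unique.

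The highest V segment was a different one in each of the 6 libraries. It was Ighv1-72 in Sal_CP 1, with 44.1% of the summed V segment FPKM, Ighv9-3 in Sal_CP 2 with 39.2%, and Ighv1-76 in Sal_CP 3 with 38.4%. In CP it was Ighv12-3 in replicate 1 with 28.2%, Ighv1-80 in replicate 2 with 62.3%, and Ighv14-2 in replicate 3 with 90.6%. The share in CP 3 rests on 3 detected segments. Replicates of a group therefore did not share their leading segment.

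**Figure D2:**
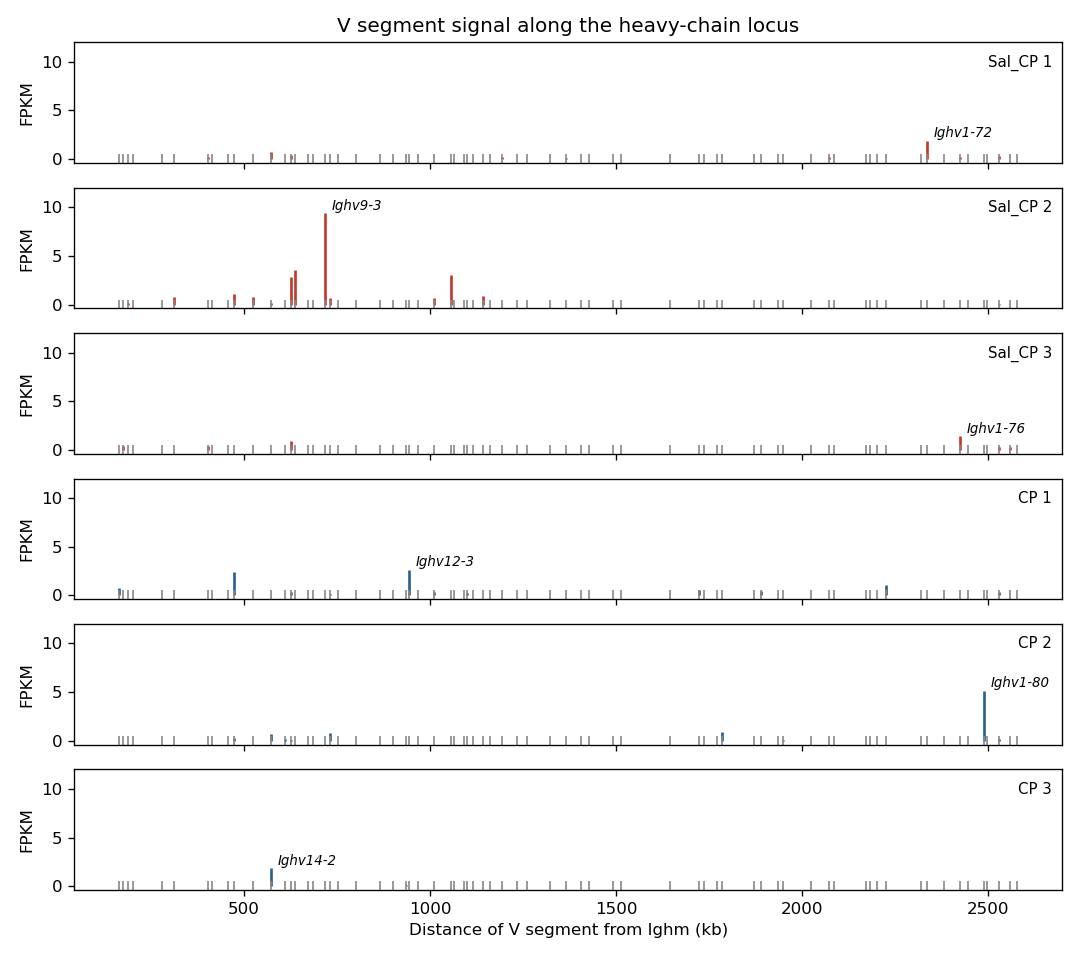
FPKM of each heavy-chain V segment in each of the 6 libraries (red, Sal_CP; blue, CP) against its distance from Ighm in kb, with a grey tick for each of the 69 segments and the highest segment named. The tallest line, Ighv9-3 in Sal_CP 2, reaches 9.36 FPKM, and no named segment recurs from panel to panel.

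Recurrent segments were few. The ends of the 3 segments above 0 in 5 libraries, Ighv11-2, Ighv14-2 and Ighv1-82, are shown with those of Ighv1-76 and Ighv7-1, which were among the highest by level.
Ighv11-2 (chr12:114048241-114048300): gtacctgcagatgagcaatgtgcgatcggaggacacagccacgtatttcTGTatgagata
Ighv14-2 (chr12:113994469-113994528): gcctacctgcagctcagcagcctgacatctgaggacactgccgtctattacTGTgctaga
Ighv1-82 (chr12:115952538-115952597): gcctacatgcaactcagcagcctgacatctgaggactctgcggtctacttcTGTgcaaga
Ighv1-76 (chr12:115847881-115847940): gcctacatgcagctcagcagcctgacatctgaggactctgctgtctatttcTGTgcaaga
Ighv7-1 (chr12:113896408-113896467): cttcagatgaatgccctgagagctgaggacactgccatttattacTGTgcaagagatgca

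Ighv11-2 read 0.393, 2.79 and 0.890 FPKM in Sal_CP 1, 2 and 3 and 0.385, 0.0893 and 0 FPKM in CP 1, 2 and 3. Every Sal_CP library was above every CP library, although Sal_CP 1 and CP 1 differed by less than 1 read pair (3.99 against 3.00 read pairs, at different depths). The means were 1.36 ± 1.27 FPKM (SD, n = 3) in Sal_CP and 0.158 ± 0.201 FPKM (SD, n = 3) in CP, and a two-sided exact permutation test gave p = 0.1, the smallest that 3 against 3 libraries allow. It was the only member without overlap between the groups, 1 of 43 members above 0, against 12.1% of all genes above 0. Ighv11-2 also shares 98.6% of its last 290 bases with Ighv11-1, which was not among the V segments measured here. Of the 100-base windows of Ighv11-2, 82.6% were unique to it.

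Ighv14-2 read 0.682, 0.158 and 0 FPKM in Sal_CP and 0.0842, 0.652 and 1.83 FPKM in CP. Ighv1-82 read 0.294, 0.0779 and 0.351 FPKM in Sal_CP and 0.299, 0.145 and 0 FPKM in CP. The groups overlapped for both segments, with two-sided exact permutation p of 0.5 and 0.6. Ighv7-1 read 0, 1.08 and 0 FPKM in Sal_CP and 2.41, 0.314 and 0 FPKM in CP, also with overlap. Ighv1-76 read 0.185, 0 and 1.44 FPKM in Sal_CP and was listed at 0 in CP, where Sal_CP 2 was at 0 too.

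Along the heavy-chain locus, detected segments were spread over the whole length that the measured segments cover. Ranked by distance from Ighm, the nearest 23 V segments (166 to 900 kb) held 14 detected ones, the middle 23 (935 to 1736 kb) held 9, and the farthest 23 (1771 to 2577 kb) held 10. Position and family go together in this locus: of the 36 Ighv1 segments measured here, these ranges held 0, 15 and 21. Of the measured segments, 12 of 36 (33.3%) were detected in the Ighv1 family, against 21 of 33 (63.6%) in the other families. Each of the 15 families measured had at least 1 detected segment. The Sal_CP 2 signal lay mostly near Ighm, with 19.2 FPKM summed over the nearest range and 0.0779 FPKM over the farthest. CP 2 was the reverse, with 1.99 and 6.25 FPKM, of which Ighv1-80 made up most of the latter.

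The constant genes were seen more steadily than the V segments. Ighm encodes the constant part of immunoglobulin M, the class of the first antibodies a B cell makes (chr12:113418558-113422730). It read 3.12, 12.6 and 3.55 FPKM in Sal_CP 1, 2 and 3 and 6.85, 5.14 and 2.45 FPKM in CP 1, 2 and 3. Sal_CP 2 was above every other library, and the remaining Sal_CP libraries lay within the CP range. The means were 6.44 ± 5.38 and 4.81 ± 2.22 FPKM (SD, n = 3 each), with a two-sided exact permutation p of 0.8. Igkc, the constant gene of the kappa light chain on chromosome 6 (chr6:70726435-70726966), read 2.60, 8.31 and 2.34 FPKM in Sal_CP and 2.74, 4.33 and 1.23 FPKM in CP. Sal_CP 2 was again the highest and CP 3 again the lowest, and the means of 4.41 ± 3.37 and 2.77 ± 1.55 FPKM (SD, n = 3 each) gave an exact permutation p of 0.7. The Igkc levels corresponded to 12 to 72.9 read pairs, and Igkc overlaps the annotated lincRNA Gm30211 on the same strand, so its reads cannot be fully assigned.

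The other heavy-chain classes were lower, in no fixed order. Igha, the constant gene of immunoglobulin A, the antibody class of secretions, read 0.889, 0.680 and 0.0227 FPKM in Sal_CP and 0, 0.0638 and 0.0817 FPKM in CP. Sal_CP 1 and 2 were above all CP libraries and Sal_CP 3 was not, and the exact permutation p was 0.3. Ighd, the constant gene of the immunoglobulin D of naive B cells, read 0.215, 0 and 0.111 FPKM in Sal_CP and 0.212, 0.0565 and 0.115 FPKM in CP, with full overlap. Of the immunoglobulin G genes only Ighg3 was seen in most libraries. Ighg3 read 0.0903, 0.0961 and 0.0724 FPKM in Sal_CP and 0.329, 0.0991 and 0 FPKM in CP. Ighg1 was above 0 in Sal_CP 3 and CP 2 (0.0687 and 0.0217 FPKM), Ighg2b in Sal_CP 2 and CP 3 (0.0226 and 0.0814 FPKM), and Ighg2c was listed at 0 in all 6 libraries. Ighm was thus the main heavy-chain constant transcript in every library.

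Jchain encodes the chain that links immunoglobulin M and A into polymers. It read 0.134, 1.16 and 0.288 FPKM in Sal_CP and 0.0822, 0.0992 and 0.190 FPKM in CP. Sal_CP 2 stood above the rest, Sal_CP 1 lay within the CP range, and the means of 0.526 ± 0.551 and 0.124 ± 0.0578 FPKM (SD, n = 3 each) gave an exact permutation p of 0.2.

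Cd79a and Cd79b, the signalling chains of the B-cell receptor, ranked the libraries differently. Cd79a read 0.602, 0.425 and 0.895 FPKM in Sal_CP and 1.203, 0.0369 and 0 FPKM in CP. Cd79b read 0.346, 0.211 and 0.291 FPKM in Sal_CP and 0.413, 0.0795 and 0 FPKM in CP. For both genes CP 1 was the highest library and CP 3 was at 0, and Sal_CP 2, the highest for Ighm and Igkc, was the lowest of its group. The groups overlapped, with exact permutation p of 0.6 for Cd79a and 0.4 for Cd79b.

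**Figure D3:**
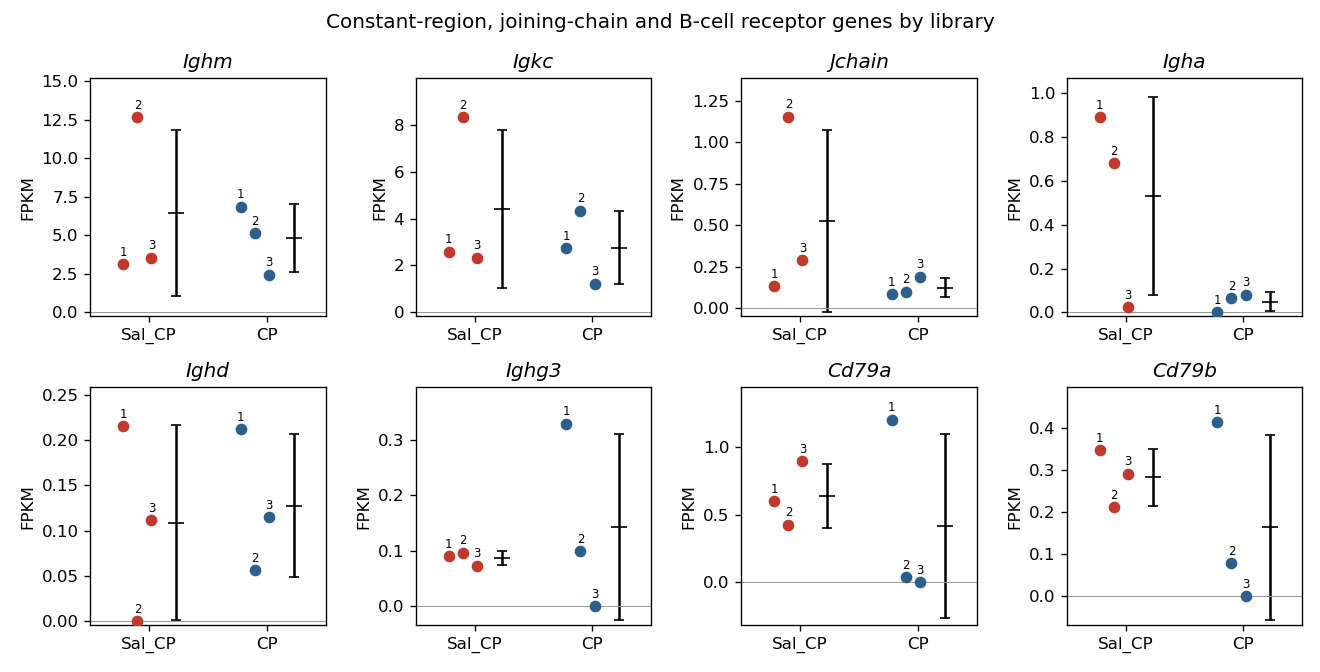
FPKM of 8 constant-region, joining-chain and receptor genes in each library, with replicate numbers above the points, Sal_CP in red and CP in blue, and the mean with its SD over 3 libraries as a bar beside each group. Sal_CP 2 is the top point for Ighm, Igkc and Jchain, and CP 1 is the top point for Ighg3, Cd79a and Cd79b.

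The member sums followed the same library. All 80 members together summed to 12.3, 47.4 and 11.4 FPKM in Sal_CP and 21.2, 18.2 and 6.16 FPKM in CP. Without Sal_CP 2 the Sal_CP mean was 11.9 FPKM, below the CP mean of 15.2 FPKM, whereas with it the mean was 23.7 FPKM. The summed V segments read 4.34, 23.9 and 3.74 FPKM in Sal_CP and 9.35, 8.24 and 2.02 FPKM in CP. The order of the libraries from high to low was Sal_CP 2, CP 1, CP 2, Sal_CP 1, Sal_CP 3 and CP 3 for the summed heavy-chain V segments. The summed kappa V segments gave the identical order, and Ighm kept the same first 3 and last libraries. Ptprc, Lyz2 of myeloid cells and the summed T-cell receptor V segments shared a different order, with Sal_CP 1 the highest and Sal_CP 3 the lowest. Other genes of the T-cell and leukocyte lists did not all share it. Cd3d of T cells was lowest in Sal_CP 1 (1.89 FPKM) and highest in Sal_CP 3 (4.77 FPKM), and Cd52 was highest in CP 2 (867 FPKM).

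**Figure D4:**
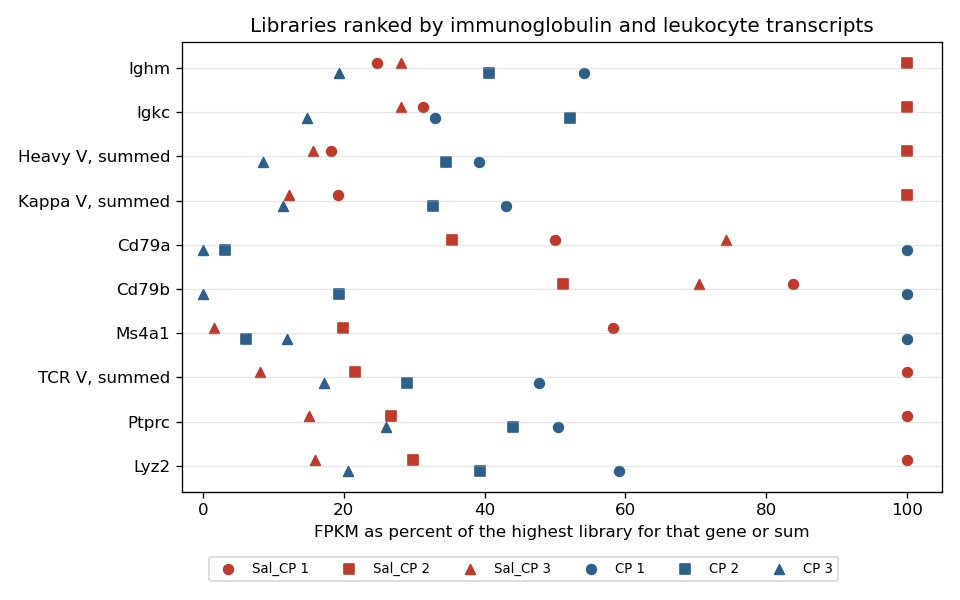
FPKM of each gene or sum in each library as a percentage of the highest library for it, with Sal_CP in red, CP in blue, and circles, squares and triangles for replicates 1, 2 and 3. The red square, Sal_CP 2, is at 100 for Ighm, Igkc and the heavy-chain and kappa V sums, and the red circle, Sal_CP 1, is at 100 for the T-cell receptor V sum, Ptprc and Lyz2.

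The comparison of Sal_CP with CP was fitted over all genes averaging 1 FPKM or more, using limma on log2(FPKM + 1) with Benjamini-Hochberg adjustment. Of 12241 genes tested, 9 (0.0735%) were called, 0 higher and 9 lower in Sal_CP. Only Ighm, Igkc and Ighv9-3 passed the level filter among the members, and 0 of them was called, nor did any have an unadjusted p below 0.05. On that log2 scale the difference of Sal_CP minus CP was 0.21 (SE 0.45, adjusted p 0.81) for Ighm and 0.44 (SE 0.42, adjusted p 0.598) for Igkc. For Ighv9-3, at 0 in 5 libraries, the adjusted p was 0.505. Under a filter of 0.1 FPKM, 28 members were tested and 0 called by limma, against 0% of 21824 genes. There Ighv11-2 (0.91, SE 0.33, p 0.0209) and Igha (0.50, SE 0.21, p 0.0429) had an unadjusted p below 0.05, with adjusted p of 0.520 and 0.536. These 2 of 28 members compare with 9.27% of all genes tested there that had an unadjusted p below 0.05.

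A few single-library segments ranked high by the authors' own test. In the authors' deposited table, 196 of 32375 genes above 0 in any library were marked significant (0.605%), and 15 of these 196 were above 0 in exactly 1 library, or 0.319% of the 4702 such genes. Of the 43 members above 0, 4 were marked significant in the authors' deposited table, and all 4 were V segments above 0 in exactly 1 library. The other 21 of the 25 single-library V segments were not marked in the authors' deposited table, with q of 0.405 to 0.872. Ighv1-80, from CP 2 alone, had the smallest p of the authors' deposited table, with p = 4.76e-16 and q = 1.54e-11. Ighv14-3, Ighv10-1 and Ighv9-3, all from Sal_CP 2 alone, ranked 3, 7 and 35 by p in the authors' deposited table. Their q were 2.30e-11, 5.65e-10 and 7.16e-05 in the authors' deposited table. The ratio of Ighv9-3 in the authors' deposited table was 31214, which corresponds to 0.0001 FPKM put in place of a CP mean of 0, so the size of that ratio is set by the replacement value. The recurrent genes Igha, Jchain and Ighv11-2 had q of 0.232, 0.295 and 0.306 in the authors' deposited table. The two-sided exact permutation p of a gene above 0 in 1 of 6 libraries is 1, as for Ighv9-3.

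Of the other genes fixed as B-lineage lists, 0 passed the test, and most were low. Of 14 B-cell surface and signalling genes, 5 were high enough to be tested by limma and 0 were called in either direction. The list summed to 13.2 to 25.6 FPKM in Sal_CP and 13.3 to 20.6 FPKM in CP. Its highest members were Blnk, a signalling adaptor at 2.20 to 5.90 FPKM, and Cd72, a surface co-receptor at 2.60 to 4.81 FPKM.

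Among 7 B-cell transcription factors, 0 reached the filter, and Pax5, Ebf1 and the rest summed to 0.755 to 3.90 FPKM. The highest sum, in CP 1, was mostly Spib at 2.35 FPKM, while Ebf1 read at most 0.0519 FPKM in any library. Of 13 plasma-cell genes, which summed to 547 to 753 FPKM in Sal_CP and 327 to 572 FPKM in CP, 6 were tested by limma and 0 were called. Tent5c, a poly(A) polymerase known from plasma cells and from spermatids, made up most of that sum, at 496, 718 and 594 FPKM in Sal_CP and 532, 381 and 278 FPKM in CP. Its difference was 0.63 on the log2 scale (SE 0.35, limma adjusted p 0.484), and the groups overlapped. Creld2, an endoplasmic reticulum protein found in many cells, read 22.5, 22.0 and 21.8 FPKM in Sal_CP and 11.6, 16.8 and 23.9 FPKM in CP, also with overlap. The sum does not give the direction of most plasma-cell genes. Of the 6 tested, 4 were lower in Sal_CP, with a median difference of -0.54 on the log2 scale. Under the filter of 0.1 FPKM, 9 of 12 were lower in Sal_CP and 0 were called. Tnfrsf17, the receptor BCMA that marks plasma cells, was listed at 0 in all 6 libraries. It was the only 1 of the 13 plasma-cell genes at 0 everywhere, and 11 of them were above 0 in all 6 libraries. Of the recombination genes, Rag1 was above 0 in 1 library and Rag2 and Dntt in 4 libraries each, with a highest value of 0.225 FPKM (Dntt in Sal_CP 1). The genes of highest mean in that precursor B-cell and recombination list were Il7r and Vpreb3. Il7r was above 0 in all 6 libraries, at 0.488 to 6.94 FPKM, and Vpreb3 in 3 libraries, at up to 0.309 FPKM.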

How the data were processed

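The 6 libraries of the series were compared, 3 labelled Sal_CP and 3 labelled CP, grouped by title. Per the labels' protocols, the libraries kept strand (UDG removal of the second strand) and gave paired-end reads of 150 bases. Per the submitters' processing notes, GRCm38 was the build. How reads were aligned and quantified, and which test the authors ran, is not given in the sources used here. Values deposited by the authors are FPKM, per the file headers, with their own fold (a ratio of group means), its log2, a p-value and a q-value. The FPKM are relative to each library's total, of which mitochondrial genes took 29.0 to 50.4%. Other per-sample columns left out numbered 0.

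Genes averaging 1 FPKM or more were compared as log2(FPKM + 1), which understates changes of low genes, with limma 3.58.1 in R 4.3.3 (trend on, robust off). Adjustment was Benjamini-Hochberg over all genes tested, threshold 0.05. The fit was tested on simulated data. Single genes were compared by two-sided exact permutation of the 6 libraries over all 20 assignments. Read pairs were computed for genes with 1 annotated transcript, as FPKM times length divided by the step of each library, a step taken as 1 read pair. Gene IDs matched GENCODE M21 in 99.7% of cases and for all 80 members. Sequences and positions come from GENCODE M21, read with Biopython 1.88, and figures were drawn with matplotlib 3.10.9.

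Named genes were all members that are not V segments, V segments above 0 in at least 5 libraries, the highest segment of each library, single-library segments of at least 1 FPKM, and the V segments of highest mean. Of the comparison lists, genes called or of highest mean were to be named, and others named here (Tnfrsf17, Rag1, Rag2, Dntt, Pax5, Ebf1) were chosen after their values were seen. Dmc1 and Ptprc were also named outside this rule, and each had the lowest mean of its list. Members and lists were chosen with earlier results of these data known. Alternatives were another pseudocount, filters and detection levels, other scalings, robust fitting, a replicate block and each library left out.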

Additional observations from a re-analysis of the deposited data

How the results depend on the processing

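Under the alternatives run, 0 members were called by limma, except that the fit with replicate numbers as a block called 1 member, Ighv9-3 (adjusted p 0.00618, a segment above 0 in 1 library). Calls over all genes were 9, and became 0 with a filter of 0.1 FPKM, 0 with no filter, 5 with quantile normalization, 0 with median of ratios rescaling and 280 with the replicate block, and 0 to 13 when a library was left out, with 0 without Sal_CP 1 and 1 without Sal_CP 2. Whether the replicate numbers pair the samples could not be decided from 3 libraries per group. Same-numbered libraries deviated with correlations of 0.20, -0.12 and -0.06 across genes, and different-numbered ones with -0.21 to 0.30. The median change of all genes tested was -0.12 (log2), and 0.02 with median of ratios rescaling.

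Members above the detection level in at least 1 library numbered 43, or 15 above 1 FPKM, and 36 to 41 with a library left out. V segments above it in exactly 1 library numbered 25, or 10 above 1 FPKM, and 19 to 25 with a library left out. Members above 0 in every library numbered 3, and 3 to 8 with a library left out, the 8 without CP 3. Leaving out a library turned the sign of 5 of 20 members. The log2 change ran from -0.34 to 0.52 for Ighm and from -0.032 to 0.74 for Igkc. The difference in mean FPKM, Sal_CP minus CP, ran from -1.48 to 3.28 for Ighm, -0.300 to 2.69 for Igkc, -0.0721 to 0.0354 for Ighd, -0.128 to 0.0367 for Ighg3 and -1.002 to 0.205 for Ighv7-1. Without Sal_CP 2 the segments Ighv9-3, Ighv14-3 and Ighv10-1 were at 0 in every library. Depth limits the lowest values: 10 of 22 single-library V segments rest on at most 3 read pairs.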

Other observations

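The light chains held signals of 1 library, or mostly of 1, too. Igkv6-15, a kappa V segment, was above 0 in Sal_CP 2 alone, at 7.24 FPKM (41.5 read pairs), and Igkv14-126 reached 5.74 FPKM (33.9 read pairs) there, with 0 to 0.325 FPKM in the other libraries. The other single-library kappa segments with more than 10 read pairs were Igkv4-55 in CP 2 (2.42 FPKM, 16.1 read pairs) and 1 segment in Sal_CP 1 (1.43 FPKM, 11.3 read pairs). The lambda segment Iglv1 read 4.70 FPKM (30.3 read pairs) in Sal_CP 2 and 1.05 FPKM in CP 1, and the constant gene Iglc3 read 2.65 FPKM (19.8 read pairs) in Sal_CP 2 and 0.653 FPKM in CP 1. The summed kappa V segments read 3.18, 16.6 and 2.02 FPKM in Sal_CP and 7.14, 5.42 and 1.89 FPKM in CP, so Sal_CP 2 was the highest, as for Ighm and Igkc. The summed lambda V segments read 6.02 FPKM in Sal_CP 2 and 1.05 FPKM in CP 1, and were listed at 0 in the other 4 libraries. Igkv6-15 was the only light-chain segment above 0 in exactly 1 library that the authors' deposited table marked significant. Heavy-chain J segments, of 48 to 54 bases where above 0, were listed at 0 in Sal_CP 2, and kappa J segments in all libraries.

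The T-cell receptor V segments, which rearrange in T cells, summed to 8.82, 1.90 and 0.709 FPKM in Sal_CP and 4.21, 2.55 and 1.52 FPKM in CP. Of 104 segments, 27 were above 0 in Sal_CP 1 and 2 in Sal_CP 3. The 7 immunoglobulin transport and Fc receptor genes summed to 112, 33.4 and 20.8 FPKM in Sal_CP and 59.1, 51.7 and 35.4 FPKM in CP, with Fcer1g, the shared signalling chain of Fc receptors, at 41.1 FPKM in Sal_CP 1 and 7.39 FPKM in Sal_CP 3. Of these 7 genes, 6 were tested by limma and 0 were called. Of the 13 T-cell genes 3 were tested and 0 called, of the 12 pan-leukocyte and myeloid genes 12 and 0, and of the 14 epididymal and epithelial genes 11 were tested and 3 were lower (Akr1b7, Clu and Defb42, adjusted p 0.0152, 0.0319 and 0.0319 by limma). Precursor B-cell genes (1 tested), germinal centre genes (0), late spermatid genes (6) and spermatocyte genes (1) gave 0 calls.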
